A study of Mus musculus with 6 samples.

Results

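The transcripts described here are 8 genes that are widely used as internal references for RT-qPCR in mouse tissue: Actb, Actg1, Tbp, Hprt, Ppia, Ywhaz, Tuba1b and Eef1a1. They were taken by gene symbol from the tables of 6 lung tumors, which hold 31130 genes, and each symbol was found once. All 8 passed the filter on low counts that left 11240 genes to test. The tumors came from wild-type (WT) female C57BL/6 mice aged 6 to 8 weeks, and in both groups Lewis lung carcinoma (LLC) cells, a lung cancer line of the same mouse strain, had been injected into the left lung on day 14. The 3 LC mice received the cells alone. The 3 IP + LC mice had also received bleomycin, which injures lung tissue and was used to give interstitial pneumonia, at 2.0 mg/kg body weight by oropharyngeal aspiration 2 weeks before the cells. Tumor tissue was collected on day 21, and its RNA was read as counts of unique molecular identifiers (UMIs), short random tags that mark single RNA molecules, at the 3′ end of transcripts. No untreated lung or bleomycin-only lung was among these 6 libraries.

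RT-qPCR measures one transcript relative to another in the same cDNA, so the result moves with both. A reference gene is therefore chosen because its transcript is abundant and holds a like share of the RNA in all samples. The usual choices are genes of basic functions: the cytoskeleton, protein synthesis, protein folding, transcription and nucleotide metabolism. In this study the RT-qPCR of Hif1a, Timp1, Vegfa and Col1a1 was normalized to Actb. The question put to the counts was how even each of the 8 transcripts was over the 6 tumors and between the groups.

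The library of LC replicate 1 stood apart and is named before the results for that reason. It held 592733 UMIs, against 1336919 to 1631066 in the other 5 libraries, and 15182 detected genes, against 19516 to 24293. Of the 1766 tested genes with a mean of at least 100 CPM (the UMI count of a gene scaled to the size of its library), 79 (4.47%) were at least 4 times lower in this tumor than in both other LC tumors, and 11 (0.623%) were at least 4 times higher. Actb was 11.6-fold lower in it than in the lower of the other LC tumors, a gap that 14 of these 1766 genes (0.793%, Actb included) reached. Summed markers of proliferation (Mki67, Top2a, Cdk1, Ccnb1 and Birc5) were at 457 CPM in this tumor, at 95.3 and 101 CPM in the other LC tumors and at 814 to 952 CPM in the IP + LC tumors. The main results that rest on this tumor are given with and without it. The labels name tumor tissue of the lung, with lung cancer cells as the cell type, and the libraries also held host lung transcripts: summed type 2 alveolar markers (Sftpc, Sftpb, Sftpa1, Lamp3 and Napsa) were at 33583 to 41464 CPM in the LC tumors and at 5877 to 10783 CPM in the IP + LC tumors. In such bulk tissue, fewer cells of a type and less RNA per cell cannot be told apart. The part of these mixtures in the results for the reference genes was not tested.

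Actb encodes β-actin, the main actin of non-muscle cells. It was counted at 1573, 19124 and 18262 CPM in LC replicates 1 to 3 and at 26074, 28040 and 28795 CPM in IP + LC replicates 1 to 3, after scaling by trimmed mean of M-values (TMM). All IP + LC tumors were above all LC tumors, and one LC tumor was far below the others. From the lowest to the highest tumor the range was 18.3-fold, and Actb took 0.158% of all UMIs in LC replicate 1 against 1.63% to 3.03% in the other tumors. The low value rested on 934 UMIs and the others on 22045 to 49105. The log2 fold change of IP + LC against LC was 1.09 ± 0.71 (SE, n = 3 per group) with a 95% interval from −0.51 to 2.69, and it did not pass the test (adjusted p = 0.285 by the quasi-likelihood test of edgeR with adjustment after Benjamini and Hochberg). When LC replicate 1 was left out, it was 0.57, or 1.49-fold, with an interval from 0.28 to 0.86 and an adjusted p of 0.00284. Within the IP + LC group Actb was even, with a coefficient of variation (CV) of 5.08%, beside 76.2% in the LC group and 3.26% between LC replicates 2 and 3.

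**Figure D1:**
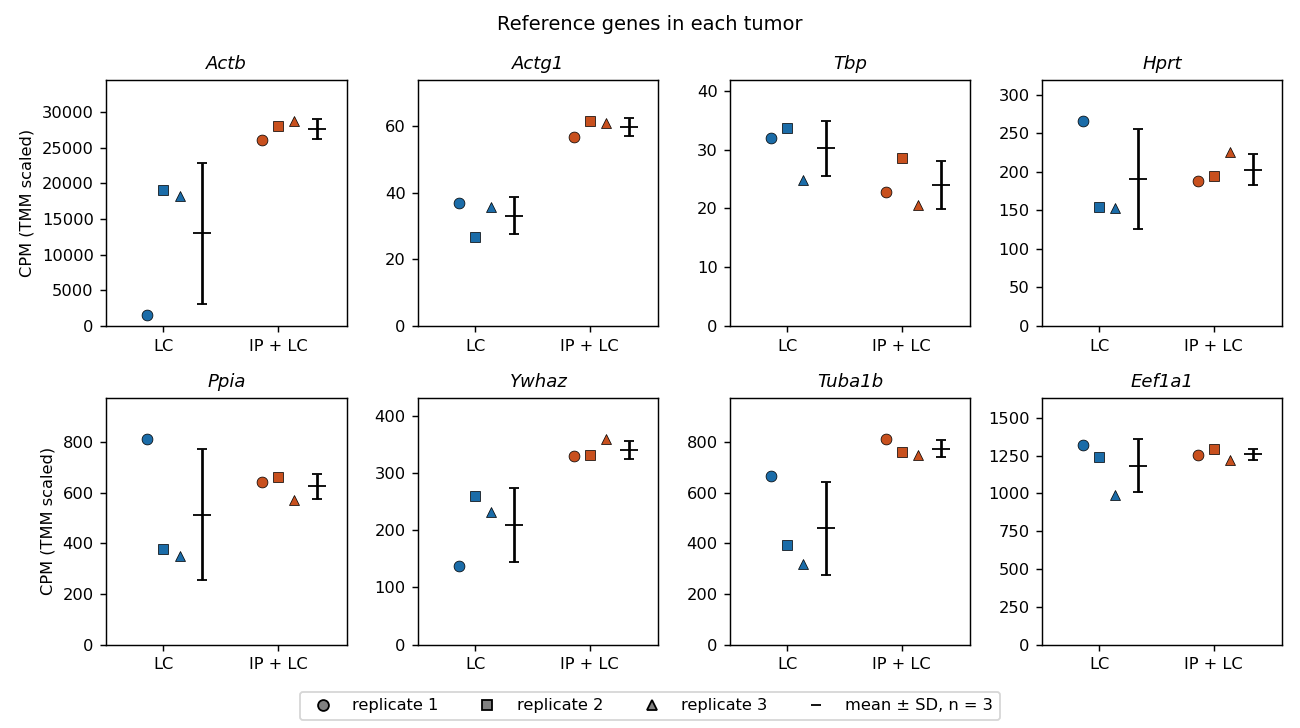
Each panel gives the level of one reference gene (y axis, CPM after TMM scaling, from 0) in the 3 LC tumors (blue) and the 3 IP + LC tumors (orange), with the marker shape giving the replicate and the bar at the right of each group its mean ± SD (n = 3). Actb, Actg1, Ywhaz and Tuba1b were higher in all IP + LC tumors than in all LC tumors, and the circle of LC replicate 1 is lowest for Actb (1573 CPM) and Ywhaz (136 CPM) and highest for Hprt (266 CPM) and Ppia (812 CPM).

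Actg1, Ywhaz and Tuba1b rose in the IP + LC tumors. Of the 8 reference genes, these 3 were called higher and none was called lower at an adjusted p below 0.1, the limit the study states. Over all 11240 genes tested, 36.4% were called, of which 1889 (16.8%) were higher and 2203 (19.6%) lower. The median log2 fold change of the 8 was 0.49, beside 0.02 over all genes tested. In 4 of the 8 genes all IP + LC tumors lay above all LC tumors, as in 21.6% of all genes tested, and in none did they lie below, as in 21.5%.

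Actg1 encodes γ-actin, the other actin of non-muscle cells, whose protein differs from β-actin in a few residues at its start. It was at 37.1, 26.8 and 35.6 CPM in the LC tumors and at 56.7, 61.7 and 61.1 CPM in the IP + LC tumors. The groups did not overlap, and LC replicate 1 did not stand out. The log2 fold change was 0.87 ± 0.21 (SE, n = 3 per group; interval from 0.40 to 1.34; adjusted p = 0.0164), a 1.83-fold difference, and it passed the limit with any one tumor left out. These values rested on 22 to 108 UMIs per tumor.

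Ywhaz encodes the zeta form of the 14-3-3 proteins, adaptors that bind phosphorylated partners. It was at 136, 260 and 232 CPM in the LC tumors and at 330, 331 and 359 CPM in the IP + LC tumors. The lowest value was again that of LC replicate 1, and the groups did not overlap. The log2 fold change was 0.69 ± 0.25 (SE, n = 3 per group; interval from 0.12 to 1.26; adjusted p = 0.0736) and 0.48 without LC replicate 1 (adjusted p = 0.0082). With LC replicate 3 or any of the IP + LC tumors left out, the adjusted p was 0.124 to 0.173.

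Tuba1b encodes an α-tubulin, a subunit of microtubules. It was at 669, 394 and 317 CPM in the LC tumors and at 812, 762 and 752 CPM in the IP + LC tumors. Here LC replicate 1 was the highest of its group, and the groups did not overlap. The log2 fold change was 0.76 ± 0.28 (SE, n = 3 per group; interval from 0.12 to 1.40; adjusted p = 0.0766) and 1.13 without LC replicate 1 (adjusted p = 1.39e-05). Leaving out LC replicate 2, LC replicate 3 or any of the IP + LC tumors gave an adjusted p of 0.155 to 0.229. Reads of Tuba1b can also come from near-identical copies: 97.4% of the last 500 bases of its transcript matched transcripts of other genes over at least 81 bases with at least 95% identity, so its count is uncertain in that respect. Tuba1a and Tuba1c were among the genes that matched its transcript anywhere by these limits.

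The other 4 reference genes did not pass the test. Eef1a1 encodes the elongation factor that brings aminoacyl-tRNA to the ribosome, and it was at 1319, 1243 and 986 CPM in the LC tumors and at 1254, 1294 and 1223 CPM in the IP + LC tumors. The groups overlapped, the CV over the 6 tumors was 9.83%, and the log2 fold change was 0.09 with an interval from −0.38 to 0.56 (adjusted p = 0.782). It was the most even of the 8 on this scale, with an SD of log2 CPM of 0.15 that 2.61% of all genes tested fell below. For its transcript, 79.6% of the last 500 bases matched transcripts of other genes. Of the 9 genes in the tables that matched it anywhere, 6 were processed pseudogenes.

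Tbp encodes the TATA-binding protein, which helps to place RNA polymerase II at promoters. It was at 32.0, 33.7 and 24.9 CPM in the LC tumors and at 22.7, 28.6 and 20.6 CPM in the IP + LC tumors. The groups overlapped, the log2 fold change was −0.32 (interval from −0.86 to 0.23; adjusted p = 0.365), and Tbp was the only one of the 8 with a negative value. It was counted with 19 to 50 UMIs per tumor, and its SD of log2 CPM over the 6 tumors, 0.27, stood beside the 0.26 that counting alone would give.

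Hprt encodes an enzyme that salvages purine bases. It was at 266, 154 and 153 CPM in the LC tumors and at 189, 194 and 226 CPM in the IP + LC tumors, so that LC replicate 1 was above all others. With it the log2 fold change was 0.10 (interval from −0.48 to 0.68; adjusted p = 0.808), and without it 0.41 (interval from 0.11 to 0.71; adjusted p = 0.0257). With LC replicate 2 or 3 left out instead, the log2 fold change was −0.040 or −0.046.

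Ppia encodes cyclophilin A, a prolyl isomerase of the cytosol, and its LC replicate 1 was also the highest of the 6 tumors. It was at 812, 376 and 352 CPM in the LC tumors and at 644, 662 and 571 CPM in the IP + LC tumors. The log2 fold change was 0.29 (interval from −0.44 to 1.02; adjusted p = 0.534) with all tumors, and 0.79 (interval from 0.50 to 1.08; adjusted p = 0.000211) without LC replicate 1. Of the last 500 bases of its transcript, 99.0% matched transcripts of other genes, and 14 of the 17 genes in the tables that matched it anywhere were processed pseudogenes. Actb, Actg1, Tbp, Hprt and Ywhaz had no such match in their last 500 bases.

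Without LC replicate 1, 6 of the 8 reference genes were called higher and none lower, all but Tbp and Eef1a1. Over all genes the calls rose as well: 28.3% of the 11748 genes then tested were called higher and 28.7% lower.

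**Figure D2:**
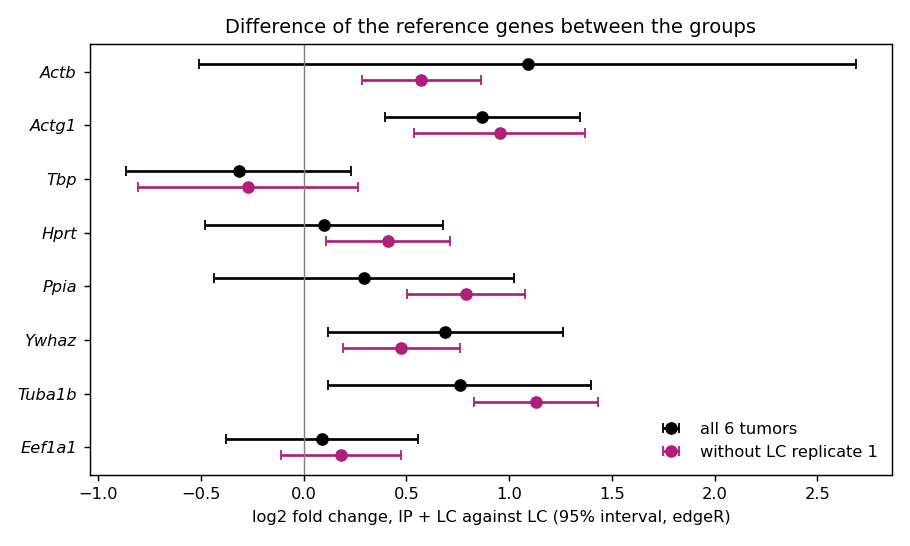
The x axis gives the log2 fold change of IP + LC against LC for each reference gene, with its 95% interval from edgeR's fit, for all 6 tumors (black) and without LC replicate 1 (magenta). The interval of Actb reaches from −0.51 to 2.69 with all tumors and from 0.28 to 0.86 without LC replicate 1, and the intervals of Tbp and Eef1a1 include 0 in both.

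The promoters of 4 of these genes are shown to put members called higher (Actg1 and Tuba1b) beside members that were not called (Tbp and Hprt). Each sequence is the RefSeq sequence of build GRCm38.p6 over the 250 bases before the start that RefSeq gives, written 5′ to 3′ on the gene's strand. The capitals mark the motifs that were searched on both strands: TATAAA (the core of a TATA box), GGGCGG (a GC box, CCGCCC on the other strand) and CCAAT. For Actg1 the stretch is chr11:120348496-120348745 (minus strand), for Tuba1b chr15:98934391-98934640 (minus strand), for Tbp chr17:15499638-15499887 (plus strand) and for Hprt chrX:52987828-52988077 (plus strand).
Actg1: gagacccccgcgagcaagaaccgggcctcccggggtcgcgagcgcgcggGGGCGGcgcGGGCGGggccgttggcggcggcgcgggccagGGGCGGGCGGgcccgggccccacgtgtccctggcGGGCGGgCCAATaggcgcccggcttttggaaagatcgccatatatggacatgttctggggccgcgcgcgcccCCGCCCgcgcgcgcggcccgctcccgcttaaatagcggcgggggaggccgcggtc
Tuba1b: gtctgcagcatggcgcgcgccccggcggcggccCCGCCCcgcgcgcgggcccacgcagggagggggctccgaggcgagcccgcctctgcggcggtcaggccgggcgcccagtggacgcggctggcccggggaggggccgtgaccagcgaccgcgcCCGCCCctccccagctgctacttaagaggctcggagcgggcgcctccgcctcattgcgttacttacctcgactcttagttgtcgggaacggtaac
Tbp: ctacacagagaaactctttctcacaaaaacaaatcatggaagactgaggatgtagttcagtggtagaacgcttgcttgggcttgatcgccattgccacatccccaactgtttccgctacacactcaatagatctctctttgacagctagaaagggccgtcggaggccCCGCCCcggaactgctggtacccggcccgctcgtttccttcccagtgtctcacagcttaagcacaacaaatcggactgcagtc
Hprt: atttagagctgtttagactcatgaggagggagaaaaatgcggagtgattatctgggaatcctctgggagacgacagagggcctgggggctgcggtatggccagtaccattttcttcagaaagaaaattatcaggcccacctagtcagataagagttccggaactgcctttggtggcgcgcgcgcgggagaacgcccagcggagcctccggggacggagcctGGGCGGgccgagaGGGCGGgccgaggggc
The RefSeq start is not always the edge of the GENCODE gene: it lies 47 bases inside that of Actg1 and 175 bases inside that of Tuba1b, and these stretches overlap the gene by as much. It lies 59 bases outside that of Hprt and at the edge of that of Tbp. Actg1 holds 6 GGGCGG matches, of which one pair overlaps, and 1 CCAAT match. Tuba1b and Hprt hold 2 GGGCGG matches each and Tbp 1, and none of these 4 holds TATAAA. A promoter was in the RefSeq table for 6 of the 8 genes. For Ppia, whose RefSeq start lies 424 bases inside the GENCODE gene, it holds 4 GGGCGG matches and 1 TATAAA match, 29 bases before the start. For Eef1a1 the RefSeq start lies 7427 bases inside the GENCODE gene, and its stretch is not described. Of all 32851 promoters of this length, 12.4% hold TATAAA, 32.7% GGGCGG and 33.8% CCAAT. The 5 promoters described hold at least 1 GGGCGG each, those of called genes as well as those of genes that were not called.

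A comparison that needs no scaling between libraries is the ratio of 2 reference genes within a tumor. For each gene the measure M is the mean SD of its log2 ratios to the other 7 genes, so that a low M marks a gene that keeps step with the others. Over the 6 tumors Actb had the highest M, 1.64, and the other 7 genes lay between 0.581 for Eef1a1 and 0.747 for Tbp. Without LC replicate 1, M was 0.245 for Actb, then the lowest of the 8, followed by 0.249 for Ywhaz, and 0.561 for Tbp, the highest. When the gene with the highest M was removed step by step, Actb left first and Hprt with Eef1a1 remained as the last pair (SD of their log2 ratio 0.249). Without LC replicate 1, Tbp left first and Actb with Ywhaz remained (SD 0.072).

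Within the 3 IP + LC tumors it was between 0.112 for Actg1 and 0.248 for Tbp, with Actb at 0.117. Within the 3 LC tumors it was between 0.654 for Eef1a1 and 2.29 for Actb, and these values rested on LC replicate 1: between the other LC tumors it was 0.156 for Actb and 0.151 to 0.433 for the other 7 genes (n = 2). The difference between the groups in M was not tested.

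**Figure D3:**
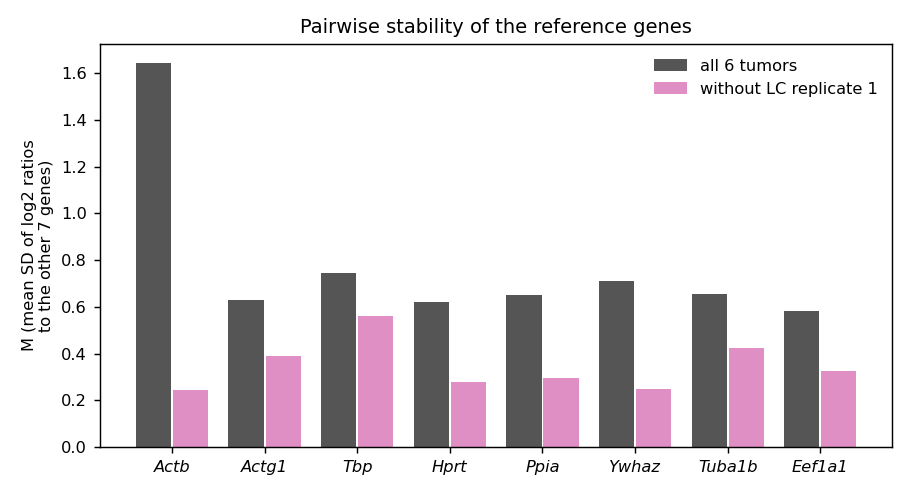
The y axis gives M, the mean SD of the log2 ratios of a gene to the other 7 reference genes, for all 6 tumors (dark bars) and without LC replicate 1 (pink bars). Actb has the highest bar with all tumors (1.64) and the lowest without LC replicate 1 (0.245).

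Among the 28 pairs of reference genes, the log2 ratios of the IP + LC tumors did not overlap those of the LC tumors in 14. For comparison, the ratio of a tested gene to one of the 8 separated the groups, in either direction, for 29.6% of all genes with Ppia as the reference and for up to 57.3% with Actb. In each of the 14 separated pairs the two-sided exact permutation test gave p = 0.1, the smallest that 3 against 3 tumors allow. After adjustment over the 28 pairs it was 0.2, and no pair could pass a limit of 0.05. Leaving out LC replicate 1 separated the groups in 24 pairs, and with 2 against 3 tumors the ratios of 55.9% (Tbp as the reference) to 85.4% (Tuba1b) of all genes did so. Tuba1b over Eef1a1 was higher in all IP + LC tumors, with log2 ratios of −1.42 ± 0.39 in LC and −0.70 ± 0.07 in IP + LC (SD, n = 3). The difference was 0.73 on the log2 scale, and 0.95 without LC replicate 1. Tbp over Eef1a1 was lower by 0.43 (−5.29 ± 0.08 and −5.73 ± 0.20), and the ratio of Hprt to Eef1a1 overlapped (−2.67 ± 0.35 and −2.64 ± 0.17). Ratios to Actb had an SD of 1.57 to 2.73 among the LC tumors, of 0.020 to 0.34 among the LC tumors other than LC replicate 1 (n = 2) and of 0.03 to 0.26 among the IP + LC tumors.

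The reference gene set the sign or the separation of several RT-qPCR targets when their UMIs were divided by those of the reference. By themselves, on the TMM scale, 3 of the 4 targets were called higher: Hif1a, the hypoxia-inducible transcription factor (log2 fold change 0.79 ± 0.23, adjusted p = 0.0322), Timp1, an inhibitor of metalloproteinases (1.95 ± 0.52, adjusted p = 0.0232, and 2.86 without LC replicate 1) and Col1a1, a chain of collagen I (1.42 ± 0.29, adjusted p = 0.00838; SE, n = 3 per group). Vegfa, an endothelial growth factor, was called lower (−1.49 ± 0.25, adjusted p = 0.00355). By RT-qPCR normalized to Actb, the paper reported Vegfa as higher in IP + LC, which is the other direction. The cause of this difference was not tested. Leaving out LC replicate 2 ended the calls of Hif1a (adjusted p = 0.121) and Timp1 (0.101), and leaving out IP + LC replicate 2 that of Hif1a (0.148).

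Relative to Actb, Hif1a had 47.1, 3.24 and 3.31 UMIs per 1000 Actb UMIs in the LC tumors and 4.16, 4.99 and 3.11 in the IP + LC tumors. Timp1 had 108, 2.64 and 2.04 in the LC tumors and 14.3, 12.8 and 7.75 in the IP + LC tumors. For both, LC replicate 1 was far above all other tumors and the groups overlapped. The mean log2 ratio of Hif1a to Actb was lower in IP + LC by 0.99 (−6.97 ± 2.22 in LC and −7.96 ± 0.34 in IP + LC; SD, n = 3), and higher by 0.29 without LC replicate 1, still with overlap. That of Timp1 was higher by 0.43, with overlap, and by 2.28 without LC replicate 1, with no overlap.

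Col1a1 had 51.4, 8.41 and 9.44 UMIs per 1000 Actb UMIs in the LC tumors and 13.7, 15.4 and 11.4 in the IP + LC tumors. The mean log2 ratio was −5.97 in LC and −6.22 in IP + LC, a difference of −0.25 with overlap, which became 0.59 with no overlap without LC replicate 1. Vegfa had 125, 10.8 and 16.9 in the LC tumors and 3.13, 2.63 and 3.48 in the IP + LC tumors. It was below the LC group in every IP + LC tumor, with a log2 difference of −3.22 with all tumors and of −2.15 without LC replicate 1.

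Eef1a1 was the most even of the 8 by SD of log2 CPM over the 6 tumors. By M without LC replicate 1 it was not, at 0.327 beside 0.245 for Actb. Relative to Eef1a1, Hif1a had 56.2, 49.9 and 61.3 UMIs per 1000 in the LC tumors and 86.5, 108 and 73.2 in the IP + LC tumors. Here LC replicate 1 lay within its group and the groups did not overlap, with a log2 difference of 0.66. The differences were 2.08 for Timp1, 1.40 for Col1a1 and −1.56 for Vegfa, and in these the groups did not overlap either. Without LC replicate 1 they were 0.67 for Hif1a, 2.66 for Timp1, 0.97 for Col1a1 and −1.77 for Vegfa, again with no overlap.

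Over the 8 references, the log2 difference of Hif1a ranged from −0.99 with Actb to 1.10 with Tbp, and its groups separated with 2 of them, Tbp and Eef1a1. With Tbp as the reference and all tumors, the ratios of 30.9% of all genes tested were above in all IP + LC tumors. Without LC replicate 1, the log2 difference of Hif1a ranged from −0.28 with Tuba1b to 1.14 with Tbp, with separation for the same 2 references. That of Timp1 ranged from 0.43 to 2.52 and its groups separated with 5 references, and with 8 without LC replicate 1. For Col1a1 the range was −0.25 to 1.84, with separation for 5 references and for 6 without LC replicate 1. With all tumors, the ratios of 0.285% (Actb as the reference) to 30.9% (Tbp) of all genes tested were above. In the comparison without LC replicate 1, the share above was 5.94% (Tuba1b) to 38.7% (Tbp). For Vegfa the log2 difference was −3.22 to −1.13, with separation for all 8, with and without that tumor. Over all genes tested, the ratios of 10.1% (Tbp as the reference) to 57.0% (Actb) were below with all tumors, and of 17.2% (Tbp) to 79.5% (Tuba1b) with LC replicate 1 left out. With the geometric mean of the 8 genes as the reference, the differences were 0.20 for Hif1a, 1.62 for Timp1, −2.02 for Vegfa and 0.94 for Col1a1, and the groups of Hif1a and Timp1 overlapped. Leaving out LC replicate 1, the difference of Timp1 was 2.32 with no overlap. With Actb taken out of that mean, an alternative chosen after seeing the data, they were 0.37, 1.79, −1.85 and 1.11 with no overlap, although for Hif1a the gap between the groups was 0.0014 on the log2 scale, a near tie. The share of all genes that the geometric means separate was not computed. Each non-overlapping ratio had an exact two-sided permutation p of 0.1, the smallest possible, and 0.164 after adjustment over the 36 ratios planned. Over all 11240 genes tested, the ratio to Actb was above in all IP + LC tumors for 0.285% and below for 57.0%, and the ratio to Eef1a1 was above for 18.3% and below for 22.7%. These shares also rested on LC replicate 1: with it left out, they were 14.6% and 57.9% for Actb and 25.9% and 37.0% for Eef1a1.

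**Figure D4:**
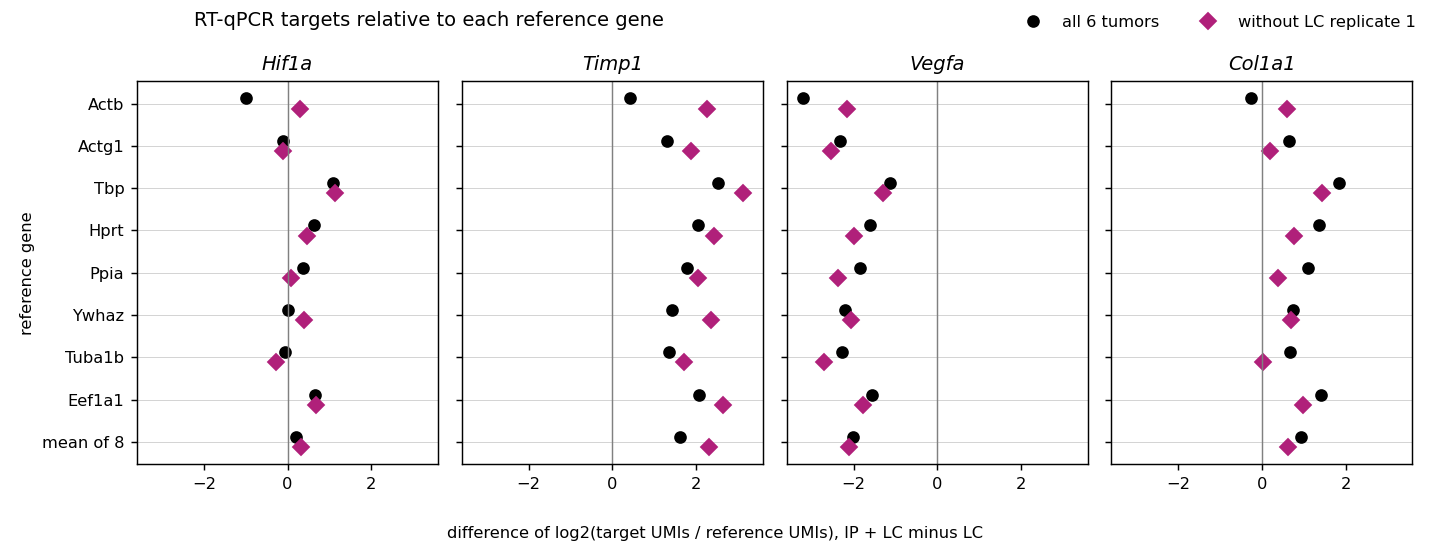
Each panel gives, for one RT-qPCR target, the difference between IP + LC and LC in the mean log2 ratio of target UMIs to reference UMIs (x axis) for each reference gene and for the geometric mean of the 8 (y axis), with all 6 tumors (black circles) and without LC replicate 1 (magenta diamonds). Vegfa lies left of 0 with every reference. Hif1a moves from −0.99 with Actb to 1.10 with Tbp with all tumors, and from −0.28 with Tuba1b to 1.14 with Tbp without LC replicate 1.

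When the whole table was scaled to Actb in place of TMM, 7 genes (0.0623%) were called higher and 1322 (11.8%) lower of the 11240 tested, by the same test and adjustment. The median log2 fold change of all genes was then −2.59, beside 0.02 under TMM. Vegfa was the only target called, with an adjusted p of 0.0999, and no other reference gene was called. These values rested on LC replicate 1. With it left out, scaling to Actb gave 1314 genes higher (11.2%) and 6218 lower (52.9%) of 11748, with a median of −0.56 over all genes. Timp1 (2.30) and Col1a1 (0.60) were then called higher and Vegfa (−2.17) lower, Hif1a was not called (0.32, adjusted p = 0.191), and 3 reference genes were called, Tuba1b higher and Tbp and Eef1a1 lower. Scaled to the geometric mean of the 8 genes, 593 genes (5.28%) were higher and 4758 (42.3%) lower, the median of all genes was −0.53, and Tbp was the 1 reference gene called, as lower (−0.87, adjusted p = 0.0192). With LC replicate 1 left out, it was 12.2% higher and 51.0% lower. The 4 reference genes then called were Actg1 and Tuba1b, higher, and Tbp and Eef1a1, lower. Hif1a was not called under this scaling with all tumors (0.23, adjusted p = 0.473) or without LC replicate 1 (0.36, adjusted p = 0.130). Timp1 and Col1a1 were called higher and Vegfa lower in both.

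The relatives of the reference genes were read from lists of their families and pathways. The counts stand beside 16.8% higher and 19.6% lower over all genes tested, and beside 28.3% and 28.7% in the fit without LC replicate 1. Of the muscle actins, 3 were tested and all 3 fell: Acta2, the actin of smooth muscle (log2 fold change −2.03 ± 0.26, adjusted p = 0.00136), Actc1, that of cardiac muscle (−2.14 ± 0.43) and Actg2 of visceral smooth muscle (−0.69 ± 0.23). Summed smooth muscle markers moved with them, at 615 to 977 CPM in LC and 184 to 251 CPM in IP + LC, and so did cardiac markers, at 691 to 1587 and 133 to 306 CPM. Both marker lists hold muscle actins, and their part in these results was not tested. Of 18 genes of actin assembly, 8 rose and 2 fell. Wdr1 and Pfn1, which promote filament turnover and assembly, rose by 1.25 ± 0.28 and 1.13 ± 0.23 on the log2 scale, and Gsn, the severing protein gelsolin, fell by 2.08 ± 0.25. With LC replicate 1 left out, 14 of the 18 were higher and 2 lower.

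Of 9 tubulins tested, 3 rose and 2 fell. Tubb6 and Tubb5, β-tubulins, rose by 1.73 ± 0.44 (2.52 without LC replicate 1) and 1.30 ± 0.21, and Tubb4a fell by 1.93 ± 0.56. The value of Tubb4a rested on 1 to 20 UMIs per tumor. Leaving out LC replicate 1 gave 5 higher and 2 lower of 10 tested. The nearest relatives of Tuba1b did not pass the test: Tuba1a had a log2 fold change of −0.41 ± 0.20 and Tuba1c of 0.97 ± 0.49, which was 1.88 and called without LC replicate 1. Of 6 genes for 14-3-3 proteins, 3 rose and none fell, Ywhag (1.54 ± 0.20), Ywhae (0.51 ± 0.20) and Ywhah (0.49 ± 0.19), and without LC replicate 1 it was 3 higher and 1 lower. Of 5 elongation factor genes tested 3 rose, Eef1e1 (1.08 ± 0.28), Eef1g (0.67 ± 0.25) and Eef1d (0.62 ± 0.19), and all 5 were called without LC replicate 1. Eef1a2, the paralog of Eef1a1, was too low to test, at 2 to 9 UMIs per tumor. Of 12 other cyclophilins 2 rose, Ppif of the mitochondrion (0.96 ± 0.26) and Ppid (0.60 ± 0.23), a share near that of all genes, and leaving out LC replicate 1 gave 5 higher and 1 lower.

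Of 14 tested partners of Tbp, 2 subunits of TFIID rose (Taf2, 0.61 ± 0.22, and Taf1, 0.56 ± 0.20), and 1 fell (Taf13, −0.55 ± 0.22), beside the 11 that did not pass. That is a smaller share than the 36.4% called over all genes, and leaving out LC replicate 1 gave 5 higher and 2 lower. The symbol Taf9 was on the list and was not matched. Of 10 genes around the purine salvage of Hprt, 3 rose and 2 fell. Ampd2, an AMP deaminase, rose by 1.58 ± 0.50 (2.48 without LC replicate 1) and Pnp, purine nucleoside phosphorylase, by 1.28 ± 0.24, and Impdh1, of guanine nucleotide synthesis, fell by 1.25 ± 0.19. Leaving out LC replicate 1 gave 4 higher and 2 lower.

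A list of 16 further reference genes in common use was read in the same fit. Pgk1 and Gapdh, enzymes of glycolysis, rose by 1.39 ± 0.37 (adjusted p = 0.0243) and 0.99 ± 0.39 (adjusted p = 0.0922), and by 1.81 and 1.55 without LC replicate 1. The groups of Gapdh overlapped with all tumors. It was counted with 46 to 303 UMIs per tumor, and copies of its transcript were not searched. G6pdx, of the pentose phosphate pathway, rose by 0.72 ± 0.22, and Alas1, of heme synthesis, fell by 0.91 ± 0.21. The other 12 did not pass the test. Over all genes tested, 16.8% were called higher and 19.6% lower. The median log2 fold change of the 16 was 0.38, beside 0.02 over all genes tested. With LC replicate 1 left out, 9 of the 16 were higher and 1 lower, beside 28.3% and 28.7% of all genes in that fit. Rpl32 and Rps18, proteins of the ribosome, had the values nearest to 0, at 0.01 ± 0.25 and 0.11 ± 0.27, and were called higher without LC replicate 1 (0.30, adjusted p = 0.0578, and 0.45, adjusted p = 0.00687).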

How the data were processed

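RNA of 6 tumors (3 LC, 3 IP + LC) was sequenced with 10-nucleotide UMIs and 81 bp inserts. The authors extracted UMIs with UMI-tools 1.1.1, trimmed with Trim Galore 0.6.7, aligned to GRCm38 with HISAT2 2.2.1 and assigned reads with featureCounts 2.0.1. The deposited values are unnormalized counts of UMIs per gene, 592733 to 1631066 per library. The submitters' processing notes also name DESeq2. The annotation and the use of strand are not given in the sources used here. Equal UMIs would lose 0.0445% to 2.36% of Actb molecules per library.

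Counts were filtered by filterByExpr (minimum count 10, minimum total 15), scaled by TMM (factors 0.890 to 1.07) and tested with the quasi-likelihood test of edgeR 4.0.16 in R 4.3.3, IP + LC against LC, with Benjamini-Hochberg adjustment over all 11240 genes and a limit of 0.1. The SD of log2 values used CPM + 1. Ratios within a tumor used counts without a pseudocount, compared by exact permutation over tumors (SciPy 1.17.1). Where nothing states that tumors came from separate experiments, p-values measure the spread between these tumors only. The test was checked on simulated data. Copies were searched with blastn 2.17.0+ between GENCODE M21 transcripts.

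Alternatives were other scalings, filters, DESeq2 1.42.0, limma 3.58.1 voom, a replicate block, thinned counts and each tumor left out. Named are the 8 reference genes, the 4 targets, the 3 largest called changes per list, the 5 genes most like Actb and the 10 most even genes. Of uncalled paralogs, Tuba1a, Tuba1c and Eef1a2 are named and the rest counted. G6pdx, Rpl32 and Rps18 were named after their values were seen. The members and lists were chosen with earlier results of these data known.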

Additional observations from a re-analysis of the deposited data

How the results depend on the processing

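Actg1 stayed called higher under every alternative except scaling to Actb and to the geometric mean of the 8 genes, in which the scaling itself contains reference genes. The number of DEGs over all genes, 4092, was 1329 with scaling to Actb and 2356 with counts thinned to 592733 UMIs per library, where fewer genes were tested, and 2260 to 6692 with one tumor left out. The number of reference genes called, 3, was 0 with scaling to Actb, 1 with scaling to the geometric mean, 1 at a limit of 0.05 and 1 to 6 with one tumor left out. Without a filter on low counts, 4820 genes and 4 reference genes were called, Actb among them (1.21, adjusted p = 0.000231), and the cause was not tested. Under scaling to Actb the log2 fold changes turned negative for Actg1 (−1.94), Hprt (−3.06), Ppia (−3.02), Ywhaz (−1.60), Tuba1b (−2.45), Eef1a1 (−2.81), Hif1a (−2.08), Timp1 (−1.67) and Col1a1 (−0.75), and under the geometric mean for Hprt (−0.47), Ppia (−0.29) and Eef1a1 (−0.47). Thinning gave −0.019 for Hprt. With LC replicate 1 also left out, a setting chosen after seeing the data, scaling to Actb and to the geometric mean called 7532 and 7424 genes, with values of −0.16 and −0.12 for Hprt, −0.096 and −0.054 for Ywhaz and −0.38 and −0.34 for Eef1a1. With one tumor left out, Hprt ranged from −0.046 to 0.41 and Eef1a1 from −0.039 to 0.18. The number of separated pairs of reference genes, 14, was 24 without LC replicate 1 and 14 to 24 over the tumors left out. Scaling by library size alone shifted the median of all genes from 0.02 to 0.19 and gave 2555 higher and 1766 lower calls, against 1889 and 2203, and upper quartile scaling (median −0.04) ended the call of Tuba1b (0.68, adjusted p = 0.119), as thinning did (0.69, adjusted p = 0.118), which left 2 reference genes called in each. DESeq2 called 3261 genes and the same number of reference genes, 3.

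Replicate numbers did not pair the tumors: same-numbered deviations correlated at 0.0227, −0.107 and 0.0948. With the replicate number as a block, 3413 genes and 3 reference genes were called. Depth limits Tbp and Actg1 most, at 19 to 50 and 22 to 108 UMIs per tumor, and 3 tumors per group cannot give an exact p below 0.1.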

Other observations

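For the 1766 tested genes of at least 100 CPM, likeness to Actb over the 6 tumors was taken as the Pearson r of log2(CPM + 1). The genes most like Actb were Dek (r = 0.9998), Kmt2d (0.999), Srrm2 (0.999), Atp2b1 (0.999) and Kdm6b (0.999). Dek, a chromatin protein, was at 5.05 CPM, which is 3 UMIs, in LC replicate 1, at 110 and 109 CPM in the other LC tumors and at 157, 181 and 190 CPM in the IP + LC tumors. Srrm2, a protein of splicing speckles, was at 38.7, 336 and 348 CPM in the LC tumors and at 462, 469 and 461 CPM in the IP + LC tumors. The 6 points of each correlation share their libraries, and the low value of LC replicate 1 is a point that stands apart in all 5, so the correlations are a description.

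The 10 tested genes of at least 100 CPM with the lowest SD of log2 CPM over the 6 tumors were Nop53, Acadl, Itgb1, Abi1, Rap1b, Rab2a, Ctbp1, Tmbim6, Atp6v1b2 and Tns3. Their lowest and highest tumors differed by 1.12-fold to 1.17-fold, beside 1.34-fold for Eef1a1 and 18.3-fold for Actb. Itgb1, the β1 integrin, was at 400 ± 24.7 CPM in LC and 421 ± 1.96 CPM in IP + LC (SD, n = 3), and Nop53, of ribosome biogenesis, at 131 ± 4.26 and 125 ± 6.08 CPM. The median SD of log2 CPM over genes of this level was 0.43. They were picked as the most even of 1766 genes in these tumors, and their evenness in others was not tested.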
